A study of Mus musculus with 11 samples.

Results

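The distal part of mouse chromosome 4 from Fam76a to Cenps was examined as 1 interval in splenic B cells of the mouse strains NOD and NR4. Its members were the probe sets of the array that are annotated with a single gene symbol and whose gene starts between Fam76a and Cenps in the RefSeq gene order of assembly GRCm38.p6, both genes included. The Padi, Tnfrsf, C1q, Rpl and Rps genes, and Fgr, Cd52, Runx3, Mtor, Id3, E2f2, Mrto4, Dhrs3, Zfp979, Zfp982, Zfp991, Znf41-ps and Gm13238, were left out, which removed 35 probe sets of 23 genes. The remaining 346 probe sets represented 195 genes, of 45037 probe sets tested in all. Of these 195 genes, 101 had 1 probe set and 94 had between 2 and 7, here called sister probe sets. The rule uses gene position and symbol.

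B cells of 6-week-old female mice were isolated from pooled spleens, 7 to 8 per lot and 3 lots per strain, by magnetic removal of other cells. NOD (NOD/ShiLtJ) is an inbred strain with spontaneous autoimmune diabetes, and NR4 (NOD.NOR-Chr4/DvsJ) is a NOD congenic strain that carries chromosome 4 material of the related NOR strain, with bounds that the labels do not give. The 4 groups were NOD cells cultured for 2 h with anti-IgM, goat F(ab')2 fragments against mouse IgM at 10 µg/ml that cross-link the B cell receptor (2 arrays), NR4 cells cultured in the same way (3 arrays), NOD cells cultured in medium alone (3 arrays) and NR4 cells cultured in medium alone (3 arrays). Values are RMA signals, taken as log2, that were deposited after each probe set had been set to a median of 0 over the 11 arrays. They show differences between arrays but no levels, so neither the level of a gene nor its detection, nor the cell type label, could be checked.

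A congenic strain differs from its parent strain mainly in the transferred chromosome segment, so genes in or near such a segment can carry different alleles while most of the genome is shared. On arrays of short oligonucleotide probes, allele differences can alter the amount of RNA of a gene or, where a base under a probe differs, the hybridization of that RNA. Sister probe sets read transcripts of the same gene, over stretches that can differ or overlap. Their readings of a strain difference therefore need not be separate. The sequences under the probes were not used here, and whether they differ between NOD and NR4 was not tested.

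The largest called strain differences belonged to Cep85, Cenps and Angptl7, and the sequence around the start of each of these genes is shown as context for the values that follow. Each run is 300 bases of the RefSeq table on GRCm38.p6, the C57BL/6J reference, from 250 bases before to 50 after the gene start, and none is a NOD or NOR sequence. Capitals mark GGGCGG and CCAAT, searched on both strands, so that CCGCCC and ATTGG are marked too, and these motifs do not overlap each other.
Cenps: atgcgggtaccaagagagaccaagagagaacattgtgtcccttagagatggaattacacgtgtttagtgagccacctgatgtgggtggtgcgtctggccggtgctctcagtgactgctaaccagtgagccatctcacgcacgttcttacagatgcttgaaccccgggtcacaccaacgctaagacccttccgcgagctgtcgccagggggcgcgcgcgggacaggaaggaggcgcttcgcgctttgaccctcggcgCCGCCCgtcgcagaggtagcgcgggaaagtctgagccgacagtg
Cep85: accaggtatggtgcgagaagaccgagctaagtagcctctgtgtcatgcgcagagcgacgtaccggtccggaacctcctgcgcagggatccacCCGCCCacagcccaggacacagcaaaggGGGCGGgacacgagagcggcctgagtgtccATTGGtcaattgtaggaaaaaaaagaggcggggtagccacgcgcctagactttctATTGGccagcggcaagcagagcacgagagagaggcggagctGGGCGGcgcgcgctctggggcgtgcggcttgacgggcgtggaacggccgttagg
Angptl7: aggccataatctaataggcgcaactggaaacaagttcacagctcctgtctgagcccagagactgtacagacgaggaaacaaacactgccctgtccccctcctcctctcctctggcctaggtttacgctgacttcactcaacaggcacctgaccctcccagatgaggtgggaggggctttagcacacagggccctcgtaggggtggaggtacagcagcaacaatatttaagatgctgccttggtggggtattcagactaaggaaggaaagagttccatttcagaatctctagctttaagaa
The 3 windows lie on the minus strand at chr4:149137551-149137850 for Cenps, chr4:134187036-134187335 for Cep85 and chr4:148500413-148500712 for Angptl7. The Cenps window holds 26 CpG dinucleotides and the Cep85 window 28, whereas the Angptl7 window holds 4, beside a median of 7 over the 32851 promoters of the table. GGGCGG occurs once in the Cenps window, 3 times in the Cep85 window and not in the Angptl7 window, and 35.7% of all promoters hold it. CCAAT occurs 2 times in the Cep85 window and in neither of the others, beside 37.4% of all promoters. TATAAA, which 13.6% of promoters hold, occurs in none of the 3.

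Averaged over both cultures, NOD differed from NR4 at 6 of the 346 probe sets, which is 1.73% of them, whereas 0.118% of all probe sets were called. A call here is a limma p below 0.05 after Benjamini-Hochberg adjustment over all 45037 probe sets, two-sided, and differences are NOD minus NR4 in log2 units. Cenps, Angptl7, Eloa and Dffa were higher in NOD and Cep85 and Sh3bgrl3 were lower. These 4 higher calls compare with 0.0533% of all probe sets called higher, and the 2 lower calls with 0.0644% called lower. With the replicate number as a block, 10 members (2.89%) were called, against 0.149% of all probe sets, the additions being Nudc, Dnajc16 and Clcn6 on the higher side and Sfn on the lower side. Without NOD anti-IgM replicate 1, 3 members (0.867%) were called, Cep85, Cenps and Angptl7, against 0.0577% of all probe sets.

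With the 6 called ones included, 30 members had an unadjusted p under 0.01, 19 of them higher (5.49%) and 11 lower (3.18%) in NOD. Over all probe sets 0.642% were higher and 0.415% lower at that p. Both directions together made 8.67% of the members, against 1.06% of all probe sets. The same share was 3.15% for the 1713 probe sets of the rest of chromosome 4 and 0.928% for those of other chromosomes. The NOD and NR4 arrays did not overlap in either culture, in the same direction, at 27 members (7.8%), against 1.54% of all probe sets. In 16 of these (4.62% of the members) the NOD arrays lay above and in 11 (3.18%) below the NR4 arrays. Over all probe sets the NOD arrays lay above in 0.937% and below in 0.604%. Most of the interval lay near 0. The median size of the difference, whatever its sign, was 0.12 over the members and 0.08 over all probe sets. The signed median was -0.03 over the members and 0.00 over all probe sets. Of the members 149 (43.1%) were positive and 197 negative, against 50% positive over all probe sets. The plot of strain differences in gene order shows the calls against this narrow band.

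**Figure D1:**
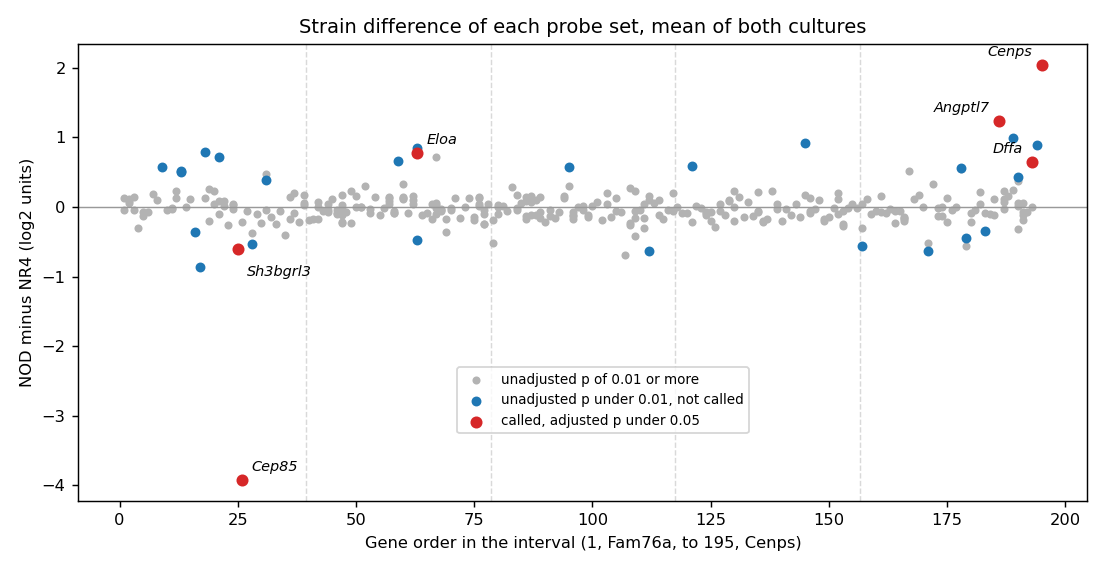
Strain difference of each of the 346 probe sets (NOD minus NR4, mean of both cultures, log2 units) against the order of the 195 genes, with dashed lines that divide the order into 5 equal parts. Red points are the 6 called probe sets, blue points the others at unadjusted p under 0.01 and grey points the rest; Cep85 lies at -3.92 and Cenps at 2.04.

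Cep85 and Cenps are cell division genes. CEP85 is a centrosomal protein that binds STIL and takes part in centriole duplication. Its probe set 1432391_at read -3.86 and -3.50 in the NOD anti-IgM arrays, against 0.16, 0.00 and 0.02 in the NR4 anti-IgM arrays. In unstimulated cells it read -3.59, -3.79 and -3.65 in NOD and 0.47, 0.35 and 0.47 in NR4. All 5 NOD arrays thus lay more than 3 log2 units below all 6 NR4 arrays. The difference was -3.92 (SE 0.09, adjusted p = 1.7e-08), a signal 15.2 times lower in NOD.

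CENP-S, the product of Cenps, is a histone-fold protein of the kinetochore that also works with FANCM in DNA repair. Its only probe set, 1453067_at, read 1.33 and 1.27 in NOD anti-IgM arrays and -0.81, -1.12 and -0.82 in NR4 anti-IgM arrays. Without stimulation the readings were 1.65, 1.44 and 1.86 in NOD and -0.35, 0.00 and -0.30 in NR4. Every NOD array lay above every NR4 array, and the difference was 2.04 (SE 0.11, adjusted p = 3.2e-05), a signal 4.12-fold higher in NOD. In bulk RNA, fewer cells that express a gene and less of its RNA per cell cannot be told apart. Of the partners of these 2 proteins encoded elsewhere (Cenpx, Fancm, Faap24, Cenpt, Cenpw, Plk4, Stil and Nek2), none of 16 probe sets was called, and their differences ran between -0.15 and 0.48. An unadjusted p under 0.05 was reached by 2 of the 16, beside 4.14% of all probe sets.

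Angptl7 encodes a secreted angiopoietin-like glycoprotein. Probe set 1451478_at read 0.81 and 0.58 in NOD anti-IgM arrays, against -0.14, -0.51 and -0.56 in NR4 anti-IgM arrays. In medium alone it read 1.01, 1.19 and 1.09 in NOD and -0.28, 0.00 and -0.50 in NR4. The strains did not overlap in either culture, and the difference was 1.23 (SE 0.12, adjusted p = 0.0027), or 2.34-fold. It is the only probe set of its gene. In the average over cultures, Cep85, Cenps and Angptl7 stayed called in each of 11 fits that left out 1 array.

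Eloa encodes elongin A, a subunit of the elongin complex that raises the rate of RNA polymerase II elongation. Its probe set 1434117_at read 0.64 and 0.52 in NOD anti-IgM arrays, against -0.28, -0.24 and 0.00 in NR4 anti-IgM arrays. The unstimulated arrays read 0.63, 0.59 and 0.67 in NOD and -0.02, -0.28 and -0.20 in NR4. The NOD arrays lay within a narrow band above all NR4 arrays, and the difference was 0.78 (SE 0.09, adjusted p = 0.0071). Without NOD anti-IgM replicate 1 the adjusted p was 0.076.

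Dffa encodes ICAD, the inhibitor and chaperone of the caspase-activated DNase that cuts DNA in apoptosis. Probe set 1450885_at read 0.19 and 0.26 in NOD anti-IgM arrays, against -0.29, -0.57 and -0.19 in NR4 anti-IgM arrays. Without anti-IgM it read 0.62, 0.63 and 0.75 in NOD and -0.09, -0.07 and 0.00 in NR4. The strains did not overlap within either culture, and both read lower with anti-IgM. The strain difference was 0.65 (SE 0.09, adjusted p = 0.026).

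Sh3bgrl3 encodes a small thioredoxin-like protein. Probe set 1416528_at read -0.40 and -0.65 in NOD anti-IgM arrays, against 0.02, 0.00 and 0.09 in NR4 anti-IgM arrays. In unstimulated cultures it read -0.30, -0.20 and -0.12 in NOD and 0.52, 0.38 and 0.44 in NR4. All NOD arrays lay below all NR4 arrays, and the difference was -0.61 (SE 0.08, adjusted p = 0.020). Sh3bgrl3 stayed called in 1 and Dffa in 2 of the 11 fits that left out 1 array, with highest adjusted p of 0.138 and 0.170.

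**Figure D2:**
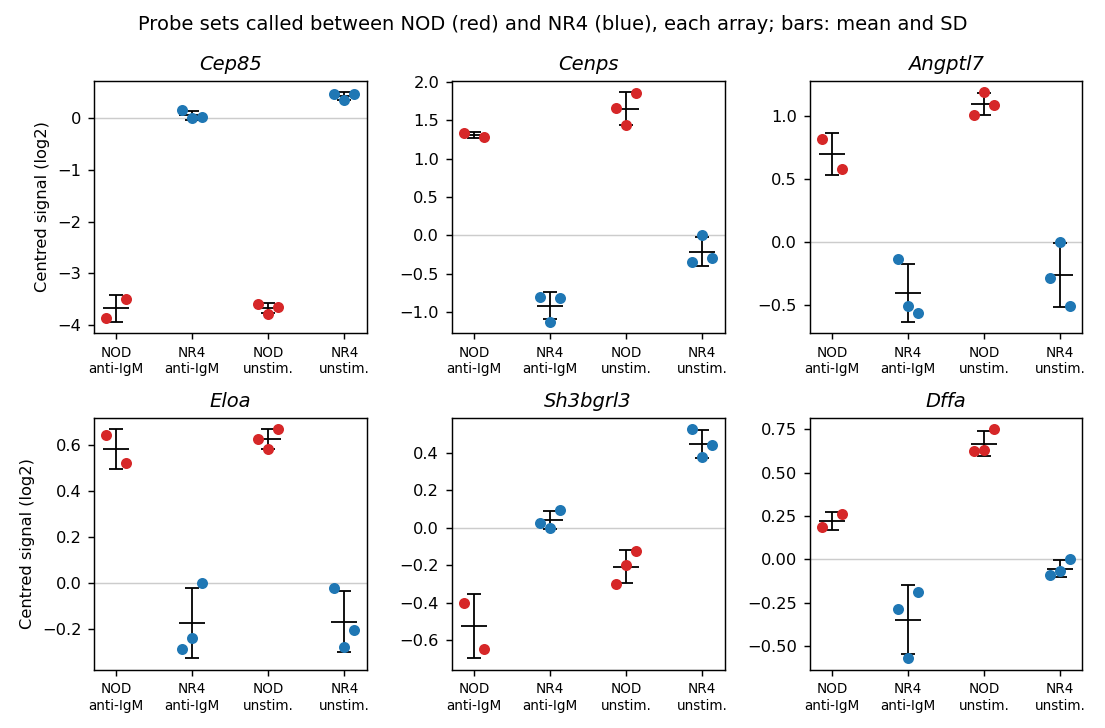
Centred signal (log2) of the 6 called probe sets in each of the 11 arrays, NOD in red and NR4 in blue, with the mean and SD of each group. Red and blue points do not overlap within a culture in any panel, and the vertical scales differ between panels.

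Other members had sizeable differences that did not pass the call. On the higher side these were Masp2, a serine protease of the lectin pathway of complement, at 0.99, Dnajc16, a DnaJ-domain protein, at 0.92, Cort, the neuropeptide cortistatin, at 0.89, and Zdhhc18, a palmitoyltransferase, at 0.78. On the lower side these were Sfn, the 14-3-3 sigma protein, at -0.86, Nbl1, an antagonist of bone morphogenetic proteins, at -0.69, Emc1, a subunit of the endoplasmic reticulum membrane complex, at -0.63, Miip at -0.63 and Pramel12 at -0.56. Their adjusted p-values lay between 0.16 for Emc1 and 0.98 for Nbl1. Each value is that of 1 probe set. The sister stood at 0.24 for Masp2, 0.17 for Dnajc16, 0.12 for Zdhhc18 and -0.52 for Miip. Of the 3 Pramel12 probe sets, 2 were negative at an unadjusted p under 0.05 and the other stood at 0.05. Cort, Sfn and Nbl1 have only 1 probe set.

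The strains were apart in both cultures for some of these genes and in 1 culture for others. Dnajc16 probe set 1434781_at read 0.34 and 0.20 in NOD anti-IgM arrays and -0.16, -0.16 and -0.77 in NR4 anti-IgM arrays, and 1.00, 0.67 and 0.81 in unstimulated NOD against 0.00, -0.33 and -0.80 in unstimulated NR4. Sfn read -0.34 and -0.76 in NOD anti-IgM arrays and 0.61, 0.01 and 0.00 in NR4 anti-IgM arrays, and -0.17, -0.68 and -0.87 in unstimulated NOD against 0.43, 0.47 and 0.28 in unstimulated NR4. The strains did not overlap for either probe set, and with the replicate number as a block both were called, with adjusted p of 0.043 for Dnajc16 and 0.016 for Sfn. Masp2 probe set 1451759_at read 0.51 and 0.21 in NOD anti-IgM arrays and -1.34, -1.67 and -0.72 in NR4 anti-IgM arrays, and 0.00, 0.44 and -0.03 in unstimulated NOD against 0.08, 0.04 and -0.85 in unstimulated NR4. Its strains were apart with anti-IgM and overlapped without it. Cort read 0.67 and 0.00 in NOD anti-IgM arrays and -0.27, 0.00 and -0.66 in NR4 anti-IgM arrays, and 0.66, 0.85 and 0.68 in unstimulated NOD against -0.05, -0.37 and -0.80 in unstimulated NR4, so that its strains were apart in unstimulated cells and met at 0.00 with anti-IgM.

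The functional lists of interval genes had medians between -0.06 and 0.03, and each held at most 1 call in a direction. Calls made up 1.73% of all members and 0.118% of all probe sets, and the lists were chosen with earlier results of these data known. Among the 36 probe sets of cell division, centrosome and cytoskeleton genes, Cenps was called higher, Cep85 was called lower and the median was -0.05. Of 33 probe sets of chromatin and transcription genes, Eloa was the only call and the median was -0.04. Zfp593, a zinc finger protein, had the next smallest p there at -0.53. Of 24 probe sets of signalling and cell death genes Dffa was called and the median was -0.03, and of 23 of secreted and matrix genes Angptl7 was called and the median was -0.04.

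The remaining lists held no call. The 29 probe sets of RNA processing and translation genes had a median of 0.03, with 3 higher and 1 lower at an unadjusted p under 0.05. Over all probe sets that p was reached by 2.67% on the higher and 1.48% on the lower side. The 34 of mitochondria and metabolism genes had a median of -0.06, with 3 higher and 3 lower at that p, among them Dhdds, which makes the dolichol precursor, at 0.71 and Micos10, a cristae junction protein, at -0.26. The 31 of ubiquitin and protein quality genes had a median of 0.00, with 1 higher and 2 lower. All these medians stand beside 0.00 over all probe sets.

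Taken by culture, 2 members were called with anti-IgM (0.578%, against 0.0377% of all probe sets) and 3 in unstimulated cells (0.867%, against 0.0577%). Cep85 was called in both, at -3.74 (SE 0.13, adjusted p = 1.1e-06) with anti-IgM and -4.10 (SE 0.12, adjusted p = 1.9e-07) in unstimulated cells. Cenps was also called in both, at 2.22 (SE 0.17, adjusted p = 7.0e-04) with anti-IgM and 1.87 (SE 0.15, adjusted p = 9.4e-04) in unstimulated cells. Angptl7 was called in unstimulated cells at 1.36 (SE 0.16, adjusted p = 0.018), and read 1.10 (SE 0.18, adjusted p = 0.17) with anti-IgM. Its call in unstimulated cells was lost in 5 of the 11 fits that left out 1 array, those without any 1 of the NOD unstimulated arrays or without NR4 unstimulated replicate 1 or 3, and when only the unstimulated arrays were fitted. With the replicate number as a block, 4 members (1.16%) were called in unstimulated cells, against 0.0733% of all probe sets, the addition being Dnajc16. The test of the difference between cultures, the interaction, called no member, as it called 0% of all probe sets.

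At an unadjusted p under 0.05 the interaction reached 2 members (0.578%), against 1.59% of all probe sets. One was Masp2 1451759_at at 1.22 (SE 0.44, unadjusted p = 0.021), and the other was Luzp1 1448352_at, whose leucine zipper protein binds actin, at 0.65 (SE 0.23, unadjusted p = 0.020), both named after their values were seen. For Angptl7 it was -0.26 (SE 0.24), for Cep85 0.36 (SE 0.18) and for Cenps 0.35 (SE 0.22). With the replicate number as a block the interaction still called no member, and 17 (4.91%) had an unadjusted p under 0.05, against 5.01% of all probe sets in that fit.

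The response to anti-IgM, averaged over the strains, reached the call at 1 member (0.289%), against 1.01% of all probe sets. This was Fuca1, the lysosomal fucosidase. Its probe set 1416109_at read -0.17 and -0.33 in NOD anti-IgM arrays, against 0.10, 0.09 and 0.31 in unstimulated NOD arrays. In NR4 it read -0.38, -0.43 and -0.27 with anti-IgM, against 0.01, 0.00 and 0.06 without it. All stimulated arrays lay below all unstimulated ones, and the response was -0.40 (SE 0.08, adjusted p = 0.048). Its sister probe sets read -0.63, -0.48 and -0.40 and were not called, and the Fuca1 call was lost in each of the 11 fits that left out 1 array.

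Epha2, an ephrin receptor tyrosine kinase, read 0.53 and 0.34 in NOD anti-IgM arrays, against 0.00, -0.25 and -0.18 in unstimulated NOD arrays. In NR4 it read 0.61, 0.19 and 0.13 with anti-IgM, against -0.20, -0.11 and -0.15 without it. The stimulated arrays lay above the unstimulated ones in both strains, with a response of 0.52 (SE 0.11, adjusted p = 0.054). With the replicate number as a block Epha2 and Fuca1 were both called. Of the strain genes, Cenps responded by -0.52 (SE 0.11, adjusted p = 0.065) and Sh3bgrl3 by -0.36 (SE 0.08, adjusted p = 0.069).

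Sister probe sets gave different strain differences for several of these genes. Over the 94 interval genes with more than 1 probe set, the range across sisters exceeded 0.5 log2 units in 15 (16%), against 3.84% of all genes with sisters. It exceeded 1 in 2 genes (2.13%), Cep85 and Eloa, against 0.233% of all genes with sisters. The median range was 0.18, against 0.16 over all genes. The test of a probe set against the median of its sisters called 4 of 245 member probe sets (1.63%), beside 0.0776% of the 25760 probe sets that have a sister. These were the probe sets of Cep85 and Rcc2. Each of these genes has 2 probe sets, so its 2 tests mirror each other with the same p and are 1 result.

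The second Cep85 probe set, 1451212_at, read -0.50 and 0.25 in NOD anti-IgM arrays, against -0.29, -0.09 and 0.34 in NR4 anti-IgM arrays. In unstimulated cells it read -0.81, 0.11 and 0.13 in NOD and -0.13, 0.00 and 0.53 in NR4. The strains overlapped in both cultures, and its difference was -0.22 (SE 0.23, unadjusted p = 0.37). The strain difference of 1432391_at minus that of its sister was -3.71 (SE 0.24, adjusted p = 9.8e-05), and this stayed called in every fit that left out an array. The large Cep85 difference was thus read by 1 of the 2 probe sets of the gene.

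Rcc2 encodes a chromatin- and microtubule-associated regulator of mitosis. Its probe set 1452226_at read 0.19 and 0.19 in NOD anti-IgM arrays, against -0.90, -0.09 and -0.14 in NR4 anti-IgM arrays, and 0.38, 0.34 and 0.64 in unstimulated NOD, against 0.00, -0.03 and -0.43 in unstimulated NR4. Its sister 1426897_at read -0.21 and -0.38 in NOD anti-IgM arrays, against -0.53, 0.00 and 0.00 in NR4 anti-IgM arrays, and -0.06, -0.08 and 0.12 in unstimulated NOD, against 0.43, 0.21 and 0.29 in unstimulated NR4. The first was higher in all NOD arrays at 0.59 (SE 0.16), the second stood at -0.22 (SE 0.12), and neither was called alone. Their difference was 0.80 (SE 0.11, adjusted p = 0.042), a call lost in each of the 11 fits that left out 1 array and with the replicate number as a block.

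Eloa had sisters on both sides of 0. Probe set 1450676_at stood at 0.85 (SE 0.21, unadjusted p = 0.0022), close to the called 1434117_at. Probe set 1422591_at read 0.00 and -0.19 in NOD anti-IgM arrays, against 0.49, -0.04 and 0.53 in NR4 anti-IgM arrays, and -0.08, -0.60 and -0.19 in unstimulated NOD, against 0.21, 0.03 and 0.49 in unstimulated NR4. It was lower in NOD by -0.48 (SE 0.15, unadjusted p = 0.0090), and against its sisters by -1.29 (SE 0.21, adjusted p = 0.099). With the replicate number as a block this last test was called. The second Dffa probe set, 1457564_at, stood at 0.00 (SE 0.14), against 0.65 for the called one.

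Of the 19 multi-probe genes whose best probe set had an unadjusted p under 0.01, a second probe set of the same sign reached p under 0.05 in 8 (42.1%), compared with 35.8% over all such genes. These 8 were Nudc, Pdik1l, Eloa, Pramel12, Miip, Clcn6, Agtrap and Tardbp. Whether their sister probe sets share target sequence was not tested. Nudc, a dynein-associated factor of nuclear movement, stood at 0.52 and 0.50, and Clcn6, a chloride and proton exchanger of endosomes, at 0.56 and 0.55. In the remaining 11 genes no second probe set of the same sign reached that p. Missing it with 11 arrays does not show that a sister lacked the difference. A probe set of the opposite sign at p under 0.05 was seen in 2 of the 19 genes (10.5%), against 1.57% over all such genes. These were Eloa and Tardbp, which encodes the RNA-binding protein TDP-43 and whose 5 probe sets ran between -0.31 and 0.42.

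**Figure D3:**
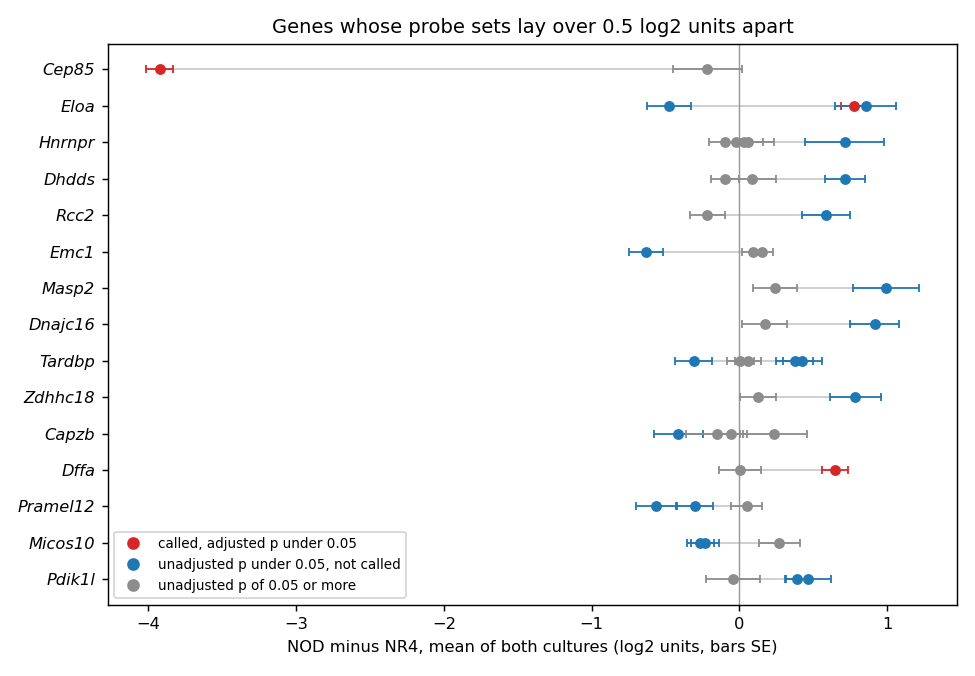
Strain difference (NOD minus NR4, mean of both cultures, log2 units) with its SE for every probe set of the 15 genes whose sisters lay more than 0.5 apart. Each row is a gene and each point a probe set; the 2 probe sets of Cep85 stand at -3.92 and -0.22.

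The differences were unevenly placed along the interval. The order of the member genes was divided into 5 parts of 39 genes, and the 23 genes that the rule left out were not counted. In the first part, Fam76a to Mtfr1l, 11 of 63 probe sets (17.5%) had an unadjusted p under 0.01, and in the last part, Pramel12 to Cenps, 11 of 68 (16.2%) did. The 3 parts between them held 4 of 83 (4.82%), 2 of 73 (2.74%) and 2 of 59 (3.39%). Together the outer parts held 22 of 131 (16.8%) and 5 of the 6 calls, against 8 of 215 (3.72%) and 1 call, Eloa, in the middle. Neighbouring probe sets can belong to 1 gene and neighbouring genes share a haplotype, so these shares are a description, and the contrast between parts was not tested. With 10 parts of 19 or 20 genes instead, the share was 20.7% in the first and 14.7% in the second. It was 0% in the third, 9.3% in the fourth and between 2.63% and 3.45% in the fifth to eighth. The ninth stood at 6.67% and the last at 23.7%, so that the final 20 genes held 9 of the 11 probe sets counted for the last of 5 parts.

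Among the member genes, the longest runs without such a difference were 31 genes between Eloa and Camk2n1 and 27 genes between Pdik1l and Cnr2. Genes that the rule left out were not counted in these runs, and differences at them were not examined here. At the near end, Fam76a, at 0.13 and -0.05, and Ahdc1, an AT-hook DNA-binding protein, at 0.12, 0.08 and 0.06, had no call. At the far end Cort and Cenps are neighbours, with Cenps the last gene. Immediately outside, Stx12, a syntaxin of endosomes, stood at -1.06 (SE 0.14, adjusted p = 0.025) with its sister at 0.04, and the 4 probe sets of Pgd, of the pentose phosphate pathway, stood between -0.37 and -0.01 with no call. In the 39 genes before Fam76a, 5 of 75 probe sets (6.67%) had an unadjusted p under 0.01 and 2 were called, and in the 39 genes after Cenps it was 6 of 91 (6.59%) with no call. The rule that left out genes inside the interval was not applied to these flanks.

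**Figure D4:**
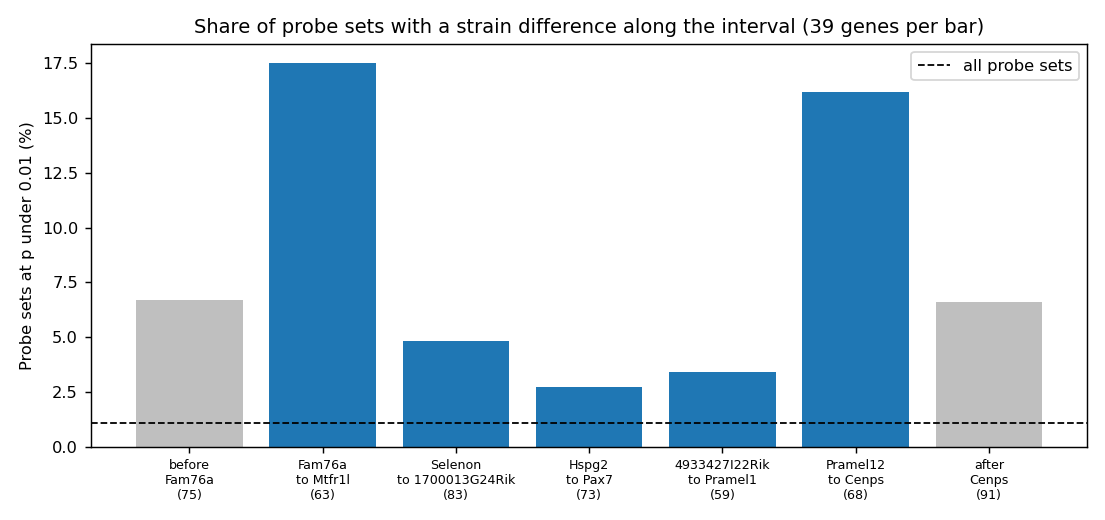
Share of probe sets with an unadjusted p under 0.01 for the strain difference (mean of both cultures) in each of 5 parts of the interval (blue, 39 genes each) and in the 39 genes on either side (grey), with probe set numbers in brackets. The dashed line is the share of all probe sets, 1.06%; the outer parts stand at 17.5% and 16.2%.

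Marker lists of B, T, NK, monocyte, granulocyte, dendritic and erythroid cells held no called strain difference. The NK list had the highest median, at 0.19 over 7 probe sets of 6 genes, with a mean over its genes, per array, of 0.07 to 0.16 in NOD anti-IgM arrays, -0.37 to 0.09 in NR4 anti-IgM arrays, -0.01 to 0.24 in unstimulated NOD arrays and -0.71 to 0.11 in unstimulated NR4 arrays. The T list had the lowest, at -0.19 over 11 probe sets of 6 genes, with 2 higher and 4 lower at an unadjusted p under 0.05, beside 2.67% higher and 1.48% lower over all probe sets. At that p the NK, monocyte and dendritic lists each had 1 probe set higher and none lower, and the other lists had none. The mean of the T list over its genes was -0.07 to 0.27 in NOD anti-IgM arrays, -0.03 to -0.01 in NR4 anti-IgM arrays, -0.11 to 0.28 in unstimulated NOD arrays and -0.40 to 0.18 in unstimulated NR4 arrays. The other 5 lists had medians between -0.10 and 0.09. The part of such cells in the strain differences was not tested. On 2 control transcripts the signal of the 3' end exceeded that of the 5' end by 0.96 in NR4 anti-IgM replicate 1, beside -0.08 to 0.29 in the other arrays. Without that array, 4 members (1.16%) were called for the strain difference, against 0.0799% of all probe sets, and 29 (8.38%) had an unadjusted p under 0.01, against 1.33%.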

How the data were processed

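Biotin-labelled RNA, amplified in 1 cycle, was hybridized to 11 Mouse Genome 430 2.0 arrays, per the labels. The authors deposited RMA values, per the submitters' processing notes, which are taken here as log2 values because no source used here states the log base or the software version. All 45101 probe sets had a median of exactly 0 over the 11 arrays, a centring the labels do not mention. No pair of arrays was identical (0 pairs), arrays carry no read depth, and their number limits the precision.

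Gene symbols come from the platform's annotation (34945 with 1 symbol, 932 with several, 9160 with none listed, and 64 controls left out). By Entrez identifier, 99.4% of the single-symbol probe sets were found in the RefSeq table of GRCm38.p6, used for gene order only, since the files name no build. Sequences around gene starts come from RefSeq.

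A mean per group was fitted with limma 3.58.1 in R 4.3.3 to all non-control probe sets (7 residual degrees of freedom), with empirical Bayes moderation, two-sided tests and Benjamini-Hochberg adjustment over all of them. For the sister test the median of the other probe sets of a gene was subtracted first. The steps were tested on simulated data. Probe sets were named in the text when called, when called apart from sisters (with all sisters), when among the 5 largest uncalled differences each way, when they had the smallest p-values of a functional list, or at the interval's ends. Some other genes, among them Epha2, Cnr2 and Luzp1, met none of these rules and were named with their values known. The members, functional lists and marker lists were chosen with earlier results of these data known.

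Replicates are lots of pooled spleens, 3 per strain, and p-values measure the spread between arrays within groups. Stimulated and unstimulated arrays of a strain can share a lot, and the fit treated all 11 arrays as independent. For differences averaged over cultures, the p-values and SEs need not measure the spread between lots. Same-numbered arrays deviated together in unstimulated NOD and NR4 (correlations of 0.60, 0.36 and 0.56) and in stimulated and unstimulated NR4 (0.32, 0.18 and 0.48), all above 0.1, so numbers were taken to pair these. Stimulated NOD has only 2 arrays, whose same-numbered correlations were 0.63 and 0.16 with unstimulated NOD arrays and 0.35 and -0.15 with stimulated NR4 arrays. Its replicate 2 correlated more with replicate 3 of unstimulated NOD (0.49) and of stimulated NR4 (0.51). With 2 arrays the deviations from the group mean are exact opposites. Each correlation of replicate 2 is therefore that of replicate 1 with the sign turned, and the 2 arrays give no separate readings of the pairing. The pairing of stimulated NOD is thus open to doubt, and the block sets its replicate 2 with the other arrays of that number. The fit without the block is the one reported, and the fit with it is an alternative. The block is shared by both strains, so it does not model lots within a strain.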

Additional observations from a re-analysis of the deposited data

How the results depend on the processing

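Cep85, Cenps and Angptl7 kept direction and call in every alternative fit run on the strain difference averaged over cultures. The number of members called for that difference was 6 and became 10 with the replicate number as a block, and it ran between 3 (without NOD anti-IgM replicate 1) and 6 over the fits without 1 array. Of all probe sets 0.118% were called in the reported fit, 0.149% with the block and 0.0577% to 0.0888% without 1 array. With 1 value per gene, the median of its probe sets, 4 genes were called, and Eloa (0.33) and Dffa (0.32) lost their calls. Calls in unstimulated cells numbered 3, 4 with the block (adding Dnajc16), 5 after quantile normalization and 2 to 4 without 1 array. The shares of all probe sets called there were, in that order, 0.0577%, 0.0733%, 0.0688% and 0.0311% to 0.0533%. Calls with anti-IgM numbered 2, and 1 (Cep85) when only those arrays were fitted, and stayed at 2 without 1 array. With anti-IgM 0.0377% of all probe sets were called in the reported fit and 0.0178% to 0.04% without 1 array. For the response the single call, Fuca1, became 2 with the block, 0 with robust moderation and 4 with gene medians (Epha2, Cenps, Fuca1 and Sh3bgrl3), and 0 in each fit without 1 array, and after quantile normalization Epha2 was the 1 call. The response was called at 1.01% of all probe sets in the reported fit and at 1.77% with the block. After quantile normalization the share was 0.842%, and without 1 array it was 0.153% to 0.864%. The interaction stayed at 0. Probe sets called apart from their sisters numbered 4, 3 with the block and 2 to 3 without 1 array. In the reported fit 0.0776% of all probe sets with a sister were called. At an unadjusted p under 0.01 there were 22 to 29 members (6.36% to 8.38%) without 1 array, against 0.657% to 1.44% of all probe sets. Of these members, 18 to 22 lay in the first and last of 5 parts of the gene order and 4 to 9 in the middle. With the block 42 members (12.1%) reached that p, against 2.04% of all probe sets. The shares along the interval, and the settings tried on them, were chosen after seeing the data. With 3 parts they were 12.8%, 2.44% and 11.3%.

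Signs that turned were of small differences or came from a gene median. With the block, Ahdc1 1440138_at was at -0.0034 and Dffa 1457564_at at -0.035, and that probe set was -0.0075 after quantile normalization. Gene medians were 0.060 for Emc1, 0.33 for Eloa, 0.18 for Rcc2 and 0.041 for Fam76a, where single probe sets had been negative. Without 1 array, differences ran between -0.13 and 0.14 for Dffa 1457564_at, -0.073 and 0.21 for Ahdc1 1440138_at, -0.027 and 0.20 for Ahdc1 1424957_at, and -0.10 and 0.00017 for Fam76a 1425328_at. The cause of these changes was not tested beyond the fewer arrays or merged probe sets of each alternative. Centred values carry no signal over background, so dim and bright probe sets are weighed alike.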

Other observations

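A few interval genes gave further values that no call covers, and of these Cnr2 was chosen with its values known. Cnr2, the cannabinoid receptor found mainly on immune cells, read 0.17 and -0.03 in NOD anti-IgM arrays, against -0.71, -1.06 and -0.13 in NR4 anti-IgM arrays. In unstimulated cells it read 0.73, 0.49 and 0.68 in NOD and 0.00, -0.47 and 0.49 in NR4. The strain groups met at 0.49 without stimulation and were apart with it, and the difference was 0.67 (SE 0.20, unadjusted p = 0.0077, adjusted p = 0.87). Its response to anti-IgM averaged -0.60 (SE 0.20, adjusted p = 0.26).

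Dhdds, which makes the long-chain precursor of dolichol, had 3 probe sets. Probe set 1450654_a_at read 0.31 and 0.21 in NOD anti-IgM arrays, against -0.75, 0.00 and -0.32 in NR4 anti-IgM arrays, and 0.62, 0.54 and 0.54 in unstimulated NOD, against -0.02, -0.22 and -0.47 in unstimulated NR4. All NOD arrays lay above all NR4 arrays, at 0.71 (SE 0.14, adjusted p = 0.21), while its sisters stood at 0.08 and -0.10. Emc1 showed the same layout in the other direction, with 1435485_at at -0.63 (SE 0.11, adjusted p = 0.16) and sisters at 0.16 and 0.09.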
